A study of Mus musculus with 3 samples.

Results

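Node and notochord cells were looked for in single-cell RNA counts of gastrulating mouse embryos. A cell was taken as a member when it had at least 1 unique molecular identifier (UMI) of T, UMIs of at least 2 of the 6 genes Noto, Foxj1, Shh, Chrd, Fam183b and Pifo, and 0 UMIs of Sox17 and Mesp1. Of 21573 cells that passed the limits of 1000 genes and 10% mitochondrial UMIs, 508 met this rule, out of 8397 cells with T. The rule used measured values, so the levels of those 9 genes in the members describe the choice and are no result. The members of each library were set against the other T-positive cells of that library.

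The samples were 3 libraries of normal embryos of the ARC mouse strain, with no treatment and 1 library per group. The groups were embryos of embryonic day 7.0 (E7.0), those of E7.25, and, from E7.5 embryos, the posterior region. How many embryos each library pooled is not given in the sources used here. With 1 library per group no spread between embryos was known and no test was run, so every interval below is an exact 95% interval for counting error only. Where a share was 0, the limit given is 3 counts of the total and no such interval. Stage, library and, at E7.5, dissected region cannot be told apart.

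The node is a small pit of cells at the distal tip of the mouse gastrula, at the front end of the primitive streak. Its surface cells each carry a motile cilium, and the beating of these cilia drives a leftward flow of fluid that sets the left-right axis. Cells that leave the node forward along the midline form the notochord, which secretes Sonic hedgehog and the BMP antagonists Chordin and Noggin and so patterns the neural tube and the somites. The transcription factor Noto acts upstream of Foxj1 in the mouse node, and FOXJ1, with RFX factors, is the regulator of the genes that build motile cilia.

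The members numbered 206 at E7.0, 80 at E7.25 and 222 in E7.5 posterior. They were 6.97% (6.07 to 7.94) of 2957 T-positive cells at E7.0, 5.10% (4.06 to 6.31) of 1569 at E7.25 and 5.73% (5.02 to 6.51) of 3871 in E7.5 posterior. Over all kept cells the shares were 2.59%, 1.54% and 2.63%. These shares depend on the dissection and on depth, and they give no number of node cells per embryo.

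Members were shallower than their neighbours in every library. Their median UMI count was 9998 at E7.0, 6004 at E7.25 and 6832 in E7.5 posterior, against 13021, 9054 and 9872 in the other T-positive cells. Their mean was 76.4%, 65.5% and 72.3% of the mean of the other T-positive cells. In sum the members held 2551773, 570135 and 1815455 UMIs, so values at E7.25 have the widest intervals. The median mitochondrial share was 2.32%, 2.68% and 3.91% in members, against 2.25%, 2.19% and 3.44% in the other cells. The libraries shared 14, 35 and 29 cell barcodes in pairs, and no barcode was a member in more than 1 library. Predicted doublets were 2 of 206 members at E7.0, 0 of 80 at E7.25, which allows a share of up to 3.75%, and 33 of 222 (14.9%, 10.5 to 20.2) in E7.5 posterior. Among the other T-positive cells of E7.5 posterior 10.4% were so marked. They were kept in the values below, and their removal is treated under the processing alternatives.

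As a check of the label, each of the 6 marker genes was left out of the rule in turn, and the cells chosen by the other 5 were asked for the gene left out. Noto, a homeobox factor that marks the node, had a UMI in 97 of 199 cells so chosen at E7.0 (48.7%, 41.6 to 55.9), in 24 of 77 at E7.25 (31.2%, 21.1 to 42.7) and in 105 of 216 in E7.5 posterior (48.6%, 41.8 to 55.5). In the other T-positive cells the Noto shares were 2.14%, 0.335% and 1.07%. Foxj1, the regulator of motile cilia, was found in 86.6%, 86.2% and 84.7% of cells chosen without it, against 7.83%, 4.5% and 5.30% of the other T-positive cells. All 3 libraries thus held Noto and Foxj1 far more often in cells picked by the remaining markers.

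Free RNA in droplets can give a UMI to a cell that does not make the gene, so the same shares were taken in visceral endoderm cells, an outer layer that should lack Noto, chosen as cells with UMIs of Hnf4a, Amn and Cubn. Their median depth was 13144, 8579 and 9896 UMIs, which was deeper than the members. Noto had no UMI in 410 such cells at E7.0, which allows a share of up to 0.732%, none in 537 cells at E7.25, which allows up to 0.559%, and was found in 1.99% of them in E7.5 posterior. Foxj1 was found in 5.85%, 1.49% and 4.48% of the visceral endoderm cells. After every cell was thinned to 5000 UMIs the shares in cells chosen without the gene were 41.3%, 31.0% and 40.6% for Noto and 78.6%, 85.3% and 86.7% for Foxj1.

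The secreted antagonist Chrd was found in 76.6%, 69.1% and 65.3% of cells chosen without it, against 10.5%, 4.0% and 5.06% of the other T-positive cells. Pifo, a gene of ciliary disassembly, was found in 56.6%, 65.2% and 78.9%, against 3.68%, 2.87% and 3.70%. Fam183b, a gene known from multiciliated and node cells, was found in 26.5% (20.6 to 33.1), 40.5% (29.6 to 52.1) and 53.0% (46.1 to 59.8), against 0.654%, 0.872% and 1.59%. The shares of Pifo and Fam183b were thus higher at the later stages, while those of Chrd were lower. Thinned to equal depth, Fam183b was found in 26.6%, 39.1% and 50%, Pifo in 45.6%, 66.7% and 70.6%, and Chrd in 55.7%, 61.9% and 62.5%, so the lower Chrd shares at the later stages were not seen at equal depth.

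Shh was the exception among the 6 genes. It was found in 4.85% (2.35 to 8.75), 6.33% (2.09 to 14.2) and 9.22% (5.72 to 13.9) of cells chosen without it, against 0.182%, 0.201% and 0.356% of the other T-positive cells and in none of the visceral endoderm cells. A notochord call therefore rested on few Shh UMIs, and the leading genes of the members are those of the ciliated node. The words node and notochord below mean the rule, with no claim on which of the 2 structures a cell came from.

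**Figure D1:**
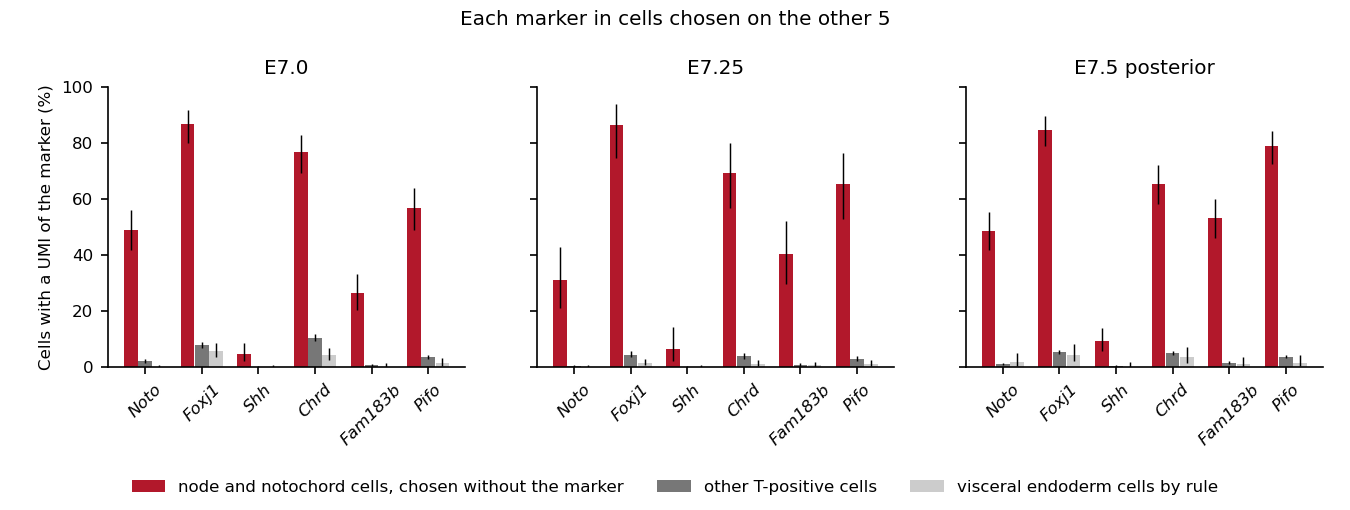
Percent of cells with at least 1 UMI of each of the 6 marker genes (y axis), per library. Red bars are cells chosen by T and at least 2 of the other 5 markers, dark grey bars the other T-positive cells and light grey bars visceral endoderm cells, and whiskers are 95% Clopper-Pearson intervals for counting error. Foxj1 reached 84.7% or more in all 3 libraries and Shh stayed at 9.22% or less.

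The regulators of the rule, in the order of the stages, were at the following levels, given as counts per 1000000 UMIs of the summed cells (CPM). T, the brachyury factor of streak and notochord, was at 446, 1124 and 1129 CPM in members, against 213, 375 and 425 CPM in the other T-positive cells. The rule asked for 1 UMI of T in both groups, and the median member had 4, 7.5 and 7 UMIs of it. Noto was at 69.4, 57.9 and 98.6 CPM in members, against 1.77, 0.19 and 1.36 CPM in the other cells. Foxj1 was at 301, 393 and 389 CPM in members, against 8.70, 4.87 and 7.54 CPM.

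Among the secreted factors of the rule, Chrd was at 152, 156 and 191 CPM in members, against 8.23, 3.89 and 5.50 CPM in the other T-positive cells. Shh had only 11, 7 and 28 UMIs over all members, in 10, 6 and 25 cells. Of the ciliary genes of the rule, Fam183b was at 45.9, 170 and 226 CPM in members and Pifo at 116, 242 and 275 CPM, against at most 4.61 CPM of either gene in the other cells. Foxa2, a forkhead factor required for the node and notochord that the rule did not use, was at 198, 233 and 238 CPM in members, against 28.9, 10.5 and 11.6 CPM. Foxa2 had a UMI in 147 of 206, 52 of 80 and 159 of 222 members, and its log2 ratio was 2.78 (2.63 to 2.93), 4.47 (4.13 to 4.80) and 4.36 (4.17 to 4.55).

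Few members held all 6 markers, and 78, 31 and 111 members held 4 or more. At E7.0, 69, 59, 54, 23 and 1 members had 2, 3, 4, 5 and 6 markers detected. At E7.25 the numbers were 25, 24, 24, 7 and 0, and in E7.5 posterior 50, 61, 58, 49 and 4. The rule has a threshold at 2, and just outside it lay 110, 39 and 122 cells with 1 marker and 0 UMIs of Sox17 and Mesp1. The summed level of the 47 genes of a motile cilia list that are not in the rule was 864, 1651 and 1402 CPM in members with 2 markers, against 381, 572 and 354 CPM in the cells with 1 marker. It was 4898, 8267 and 7601 CPM in members with 5 markers. The level was higher with each further marker from 0 to 5 in every library. The markers Foxj1, Fam183b and Pifo belong to the same ciliary programme, so this order follows in part from the sorting and is no support. The widest relative step lay between 1 and 2 markers at E7.0 and in E7.5 posterior, where members with 3 and 4 markers had 2962 and 4756 CPM.

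T was higher with each further marker from 2 to 5 in every library, and Foxa2 at E7.0 and E7.25. At E7.0 T was at 242, 435, 543 and 872 CPM in members with 2, 3, 4 and 5 markers, and at 191 CPM in the cells with 1 marker. Foxa2 at E7.0 was at 153, 203, 214 and 274 CPM with 2 to 5 markers and at 125 CPM with 1 marker. In E7.5 posterior Foxa2 was at 186, 177, 243 and 367 CPM with 2 to 5 markers, against 27.4 CPM in the cells with 1 marker, a wider step at the threshold than at E7.0. Deeper cells did not hold more markers: the median depth in E7.5 posterior was 8034 UMIs with 2 markers and 6092 with 5.

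Gsc, a homeobox gene of the early organizer, had the opposite order at E7.0. It was at 96.7, 86.8, 47.0 and 3.47 CPM in members with 2, 3, 4 and 5 markers, and had a UMI in 47.8%, 35.6%, 20.4% and 4.35% of these cells. The cells with 1 marker had 118 CPM of Gsc. At E7.25 only 2 of 80 members had a UMI of Gsc, and in E7.5 posterior 15 of 222.

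**Figure D2:**
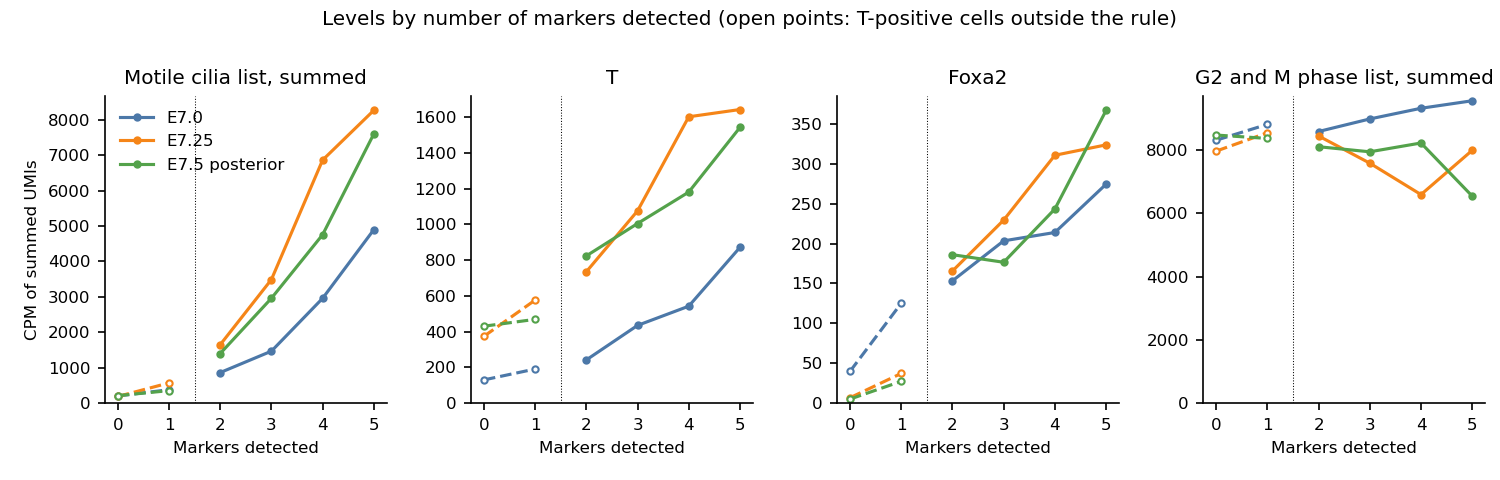
Level in CPM (y axes) of the motile cilia list without the rule's genes, T, Foxa2 and the list of G2 and M phase genes, by the number of the 6 markers detected (x axis), per library. Filled points are members with 2 to 5 markers and open points are cells outside the rule with 0 or 1 marker. At E7.0 the cilia list lay at 864 CPM with 2 markers and 4898 CPM with 5.

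Across all genes a gene was compared where it reached 30 CPM in at least 1 of the 2 sums, and counted when the levels differed at least 2-fold. At E7.0, 204 of 4210 compared genes were at least 2-fold higher in members (4.85%) and 73 lower (1.73%). At E7.25 these were 426 of 4705 (9.05%) and 212 (4.51%), and in E7.5 posterior 336 of 4449 (7.55%) and 114 (2.56%). The rule chose members on this contrast and the sums differ in depth, so the counts give the background of the lists below and no test. The median log2 ratio over all compared genes was -0.06, -0.05 and -0.09. With TMM scaling it was -0.11, -0.16 and -0.16, and the counts at E7.25 were 386 higher and 295 lower, so 56.7% of the called genes were higher in place of 66.8%. At least 2-fold higher in all 3 libraries were 159 genes, which is 77.9% of the E7.0 genes, 37.3% of the E7.25 genes and 47.3% of the E7.5 posterior genes.

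Most of the genes that stood highest in members are known from motile cilia, many of them from the axoneme, the moving core of a cilium. The list of motile cilia genes held 49 genes in the files, of which 47 are not in the rule. Of those 47, 23, 31 and 32 reached the 30 CPM minimum and each of these was at least 2-fold higher in members. In each library only 1 of the 47 reached 30 CPM in the other T-positive cells, so the genes that passed the minimum did so almost always through the members and then had to differ, and the counts of 23, 31 and 32 are no support. Without a minimum, 46, 45 and 45 of the 47 genes were above the level in the other T-positive cells, beside 40.7%, 39.6% and 40.5% of all genes with a UMI. Their summed level was 2019, 4003 and 4041 CPM in members, against 218, 230 and 257 CPM in the other cells.

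Dnajb13, a radial spoke protein, had 126, 65 and 224 UMIs in members. That was 49.4, 114 and 123 CPM, against 0.96, 0.62 and 1.75 CPM in the other T-positive cells, with log2 ratios of 5.68, 7.53 and 6.14. The other T-positive cells, far more in number, held 43, 10 and 72 UMIs of Dnajb13 in all. Dynlrb2, a dynein light chain, was at 36.1, 93 and 131 CPM in members, against 0.72, 0.56 and 1.79 CPM. Tppp3, a microtubule-binding protein of ciliated cells, was at 60.4, 232 and 239 CPM in members, against 1.32, 1.23 and 3.32 CPM. Tekt1, a filament protein inside axonemal microtubules, was at 85.0, 221 and 165 CPM in members, against 2.78, 4.44 and 3.39 CPM. E7.0 was the lowest of the 3 libraries for all 4 of these genes.

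Of the other genes of this kind, Cfap53, known from studies of left-right patterning, had log2 ratios of 5.46, 5.69 and 5.65. Cfap45 and Cfap126, both axonemal proteins, had 5.27, 6.24 and 6.26, and 5.24, 6.53 and 5.69. Enkur, which is required for left-right asymmetry in the mouse, was at 57.2, 78.9 and 100 CPM in members. Ccno, a cyclin-like protein of centriole amplification in multiciliated cells, was at 152, 202 and 222 CPM in members, against 7.53, 6.97 and 7.05 CPM in the other T-positive cells. Rfx3, the RFX factor required for nodal cilia, was at 58.0, 98.2 and 106 CPM in members, against 11.7, 11.6 and 14.4 CPM, with log2 ratios of 2.31 (2.03 to 2.57), 3.08 (2.63 to 3.52) and 2.88 (2.64 to 3.12). Nog, which encodes the BMP antagonist Noggin, was also among the 20 highest. It was at 30.2, 78.9 and 92.0 CPM in members, against 1.35, 2.59 and 2.93 CPM in the other cells.

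Genes of ciliary assembly and transport, which most cells use for a primary cilium, differed less. Over all genes with a UMI, 40.7%, 39.6% and 40.5% were above the level in the other T-positive cells. Of the 34 assembly and transport genes it was 32, 32 and 33. Their summed level was 1255, 1666 and 1709 CPM in members, against 654, 611 and 634 CPM. The minimum of 30 CPM was reached by 14, 17 and 17 of them in members and by 7, 6 and 7 in the other cells. Since many passed it through the members alone, the 8, 15 and 14 genes at least 2-fold higher are no support. Ift74, a subunit of the transport trains, was at 179, 216 and 174 CPM in members, against 61.0, 49.1 and 52.4 CPM in the other T-positive cells. Arl6, a small GTPase of the BBSome coat, was at 69.8, 50.9 and 108 CPM, against 22.9, 16.3 and 28.7 CPM. Dync2h1, the motor of return transport, was at 38.8, 85.9 and 85.9 CPM, against 13.9, 23.6 and 20.5 CPM. Arl6 and Dync2h1 were thus under 30 CPM outside the members in every library, and Ift74 was above it.

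**Figure D3:**
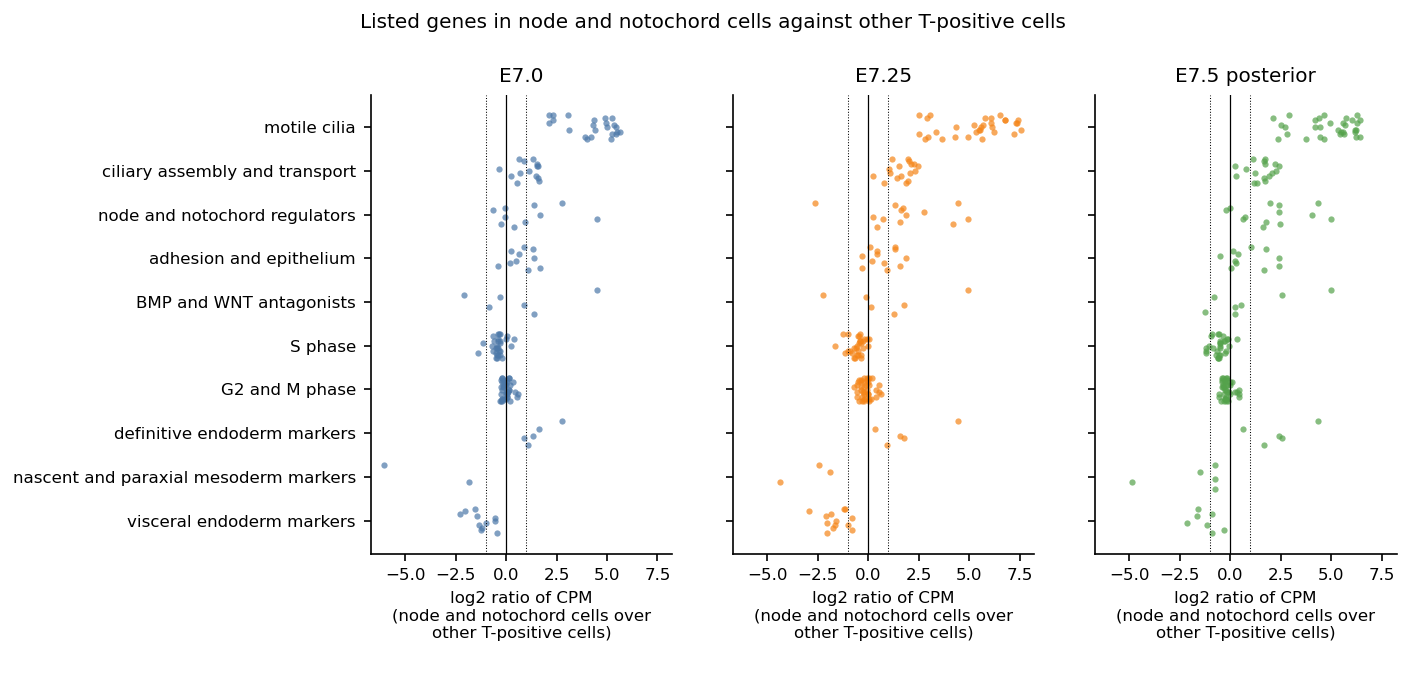
Log2 ratio of members over other T-positive cells (axis of values, with dotted lines at 2-fold) for each compared gene of 10 gene lists, per library. Each point is 1 gene. Motile cilia genes lie far to the higher side with medians of 4.40, 5.58 and 5.38, S phase genes lie slightly to the lower side with medians of -0.41, -0.49 and -0.55.

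Promoters of ciliary genes were read for motifs, because RFX factors bind a sequence called the X-box. The genes sought were Foxj1, Fam183b and Pifo of the rule, and the motile cilia list's genes among the 20 highest. Others of the 20, such as Dnajb13 and Ccno, are not in that list and were not searched. Of the 16 genes sought 12 were found in the RefSeq promoter table of GRCm38.p6, each with 250 bases before and 50 bases after the start. The letters GTTNCCAT, the core of the X-box, were searched on both strands and were found in 3 of the 12 genes. They are shown with the core in capitals, on the strand of the gene, where the match of Cfap45 lies on the opposite strand.
Cfap45 (chr1:172520880-172521179, plus strand): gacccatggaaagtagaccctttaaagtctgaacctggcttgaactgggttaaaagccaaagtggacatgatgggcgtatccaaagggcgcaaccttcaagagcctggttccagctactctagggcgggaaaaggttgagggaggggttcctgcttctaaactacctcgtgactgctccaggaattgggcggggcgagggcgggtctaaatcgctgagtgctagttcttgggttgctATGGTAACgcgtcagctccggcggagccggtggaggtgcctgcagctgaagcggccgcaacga
Tekt1 (chr11:72361833-72362132, minus strand): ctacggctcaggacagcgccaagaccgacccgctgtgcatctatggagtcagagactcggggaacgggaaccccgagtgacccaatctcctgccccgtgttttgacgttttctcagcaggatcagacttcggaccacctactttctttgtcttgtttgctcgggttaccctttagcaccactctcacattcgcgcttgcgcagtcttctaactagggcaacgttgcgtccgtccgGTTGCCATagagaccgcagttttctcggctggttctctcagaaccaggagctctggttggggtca
Lrriq1 (chr10:103236273-103236572, minus strand): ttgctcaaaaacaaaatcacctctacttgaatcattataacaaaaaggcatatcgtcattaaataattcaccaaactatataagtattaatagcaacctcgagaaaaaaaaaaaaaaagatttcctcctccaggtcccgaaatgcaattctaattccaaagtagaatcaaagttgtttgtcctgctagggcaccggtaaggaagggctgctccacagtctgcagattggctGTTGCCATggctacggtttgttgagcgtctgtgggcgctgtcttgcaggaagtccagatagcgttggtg
The match began 13 bases before the start in Cfap45, 15 before it in Tekt1 and 19 before it in Lrriq1.

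Within the same window 1384 of all 27025 genes with a listed promoter held the X-box core (5.12%). Of the motile cilia list 9 of 40 genes in the table held it (22.5%), namely Cfap45, Cfap52, Dnah5, Lrrc23, Lrriq1, Meig1, Mlf1, Tekt1 and Tmem107, and of the ciliary assembly list 0 of 29. The forkhead core TGTTTAC was in 0 of the 12 genes and in 2 of 40 of the motile cilia list, Ak7 and Mlf1, against 4.05% of all genes. The brachyury core AGGTGTGA was in none of either, against 1.48% of all genes. A match is a description of these letters and not a site or a cause. Lrriq1, which encodes a protein with leucine-rich repeats, was at 34.1, 56.1 and 47.4 CPM in members, against 1.61, 1.48 and 1.09 CPM in the other T-positive cells.

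Of a list of 25 regulators and structural genes of node and notochord, 5 are in the rule. Of the other 20, 14, 15 and 16 were above the level in the other T-positive cells. Over all genes with a UMI it was 40.7%, 39.6% and 40.5%. The numbers of listed genes were thus much alike in the 3 libraries. Compared were 10, 13 and 13, of which 4, 9 and 9 were at least 2-fold higher in members, and 1 was lower, Nrp2 at E7.25, with 1 UMI in members. These counts lean on the minimum, which 10, 12 and 13 genes reached in members and 8, 7 and 6 in the other cells. Higher in all 3 libraries were Foxa2, Nog, Krt8 and Krt18, the last 2 of which encode the keratins of simple epithelia. Krt8 was at 458, 923 and 665 CPM in members, against 145, 249 and 127 CPM in the other T-positive cells. Krt18 was at 343, 677 and 441 CPM in members, against 131, 274 and 130 CPM.

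Bicc1, Slit2, Sox9, Krt19 and Lhx1 were called higher in both later libraries and not in the first, and of these only Lhx1 reached 30 CPM at E7.0. Bicc1 and Slit2 already had log2 ratios of 2.22 and 1.46 there. Bicc1, an RNA-binding protein required for left-right patterning, was at 26.7, 174 and 145 CPM in members, against 5.72, 9.56 and 8.73 CPM in the other cells. Sox9, a factor of notochord sheath and cartilage, was at 9.01, 31.6 and 52.3 CPM, against 5.54, 9.44 and 9.48 CPM. Lhx1, a LIM homeobox factor of the organizer, was at 515, 260 and 254 CPM in members, against 534, 85.1 and 81.9 CPM. At E7.0 its level in members was thus about that of the other T-positive cells (log2 ratio -0.05, -0.14 to 0.03), which are mostly nascent mesoderm by their Mesp1. Against other T-positive cells without Mesp1 and Sox17 the Lhx1 ratio was 0.84 at E7.0.

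A closer comparison used T-positive cells with a UMI of Foxa2 that were not members and had 0 UMIs of Sox17 and Mesp1, of which there were 131, 32 and 56. Against them 139 of 4191 genes were at least 2-fold higher in members at E7.0 (3.32%) and 60 lower (1.43%). At E7.25 it was 458 of 5032 (9.1%) and 523 (10.4%), and in E7.5 posterior 330 of 4491 (7.35%) and 182 (4.05%). Foxa2 itself chose these cells, and was at 198 CPM in members at E7.0 and 202 CPM in them. Gsc was at 70.9 CPM in members at E7.0, against 151 CPM in the Foxa2-positive cells, and Fgf8, a growth factor of the streak, at 79.2 CPM against 220 CPM. Otx2, a head organizer factor, was at 69.0, 43.8 and 33.0 CPM in members, against 122, 99.7 and 93.2 CPM. Of the node and notochord list outside the rule, 10, 14 and 13 genes were compared with these cells. At least 2-fold higher were 1, 4 and 4, and lower 2, 3 and 1. The higher ones were Nog at E7.0, and Slit2, Bicc1, Nog and Sox9 in both later libraries, without Krt19 and Lhx1. Summed, the list was at 2215, 2775 and 2285 CPM in members, against 2451, 2744 and 1748 CPM. Tekt1 was at 85.0, 221 and 165 CPM in members, against 8.36, 10.3 and 15 CPM in the Foxa2-positive cells. As non-members without Sox17 and Mesp1, the Foxa2-positive cells held fewer of the rule's markers than any member. Several of those markers are ciliary, so the gap in Tekt1 was set in part by the rule and is no support. The Foxa2-positive cells carried more visceral endoderm RNA than the members. Ttr, a carrier protein of that layer, was at 37.6, 123 and 18.2 CPM in members. In the Foxa2-positive cells it was at 263, 1516 and 475 CPM. The part of visceral endoderm RNA in the counts against these cells was not tested.

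Genes of epithelium and of mesenchyme went opposite ways against the other T-positive cells. Of 19 genes of adhesion and epithelium 10, 12 and 11 were compared, and 4, 4 and 5 were at least 2-fold higher in members, with 0 lower. By level 13, 15 and 13 of the 19 were above the other T-positive cells, beside 40.7%, 39.6% and 40.5% of all genes with a UMI. Cdh1, which encodes E-cadherin, was at 71.7, 126 and 132 CPM in members, against 38.8, 50.8 and 64.7 CPM in the other T-positive cells. Of 11 genes of mesenchymal transition 6, 5 and 5 were compared, and 4, 2 and 2 were at least 2-fold lower, with 0 higher. By level 2, 1 and 1 of the 11 were above the other T-positive cells. Over all compared genes 4.85%, 9.05% and 7.55% were at least 2-fold higher in members and 1.73%, 4.51% and 2.56% lower. Fn1, the matrix protein fibronectin, was at 66.6, 111 and 102 CPM in members, against 308, 264 and 295 CPM. Snai1, which represses E-cadherin, was at 6.66, 5.26 and 8.81 CPM, the middle value from 3 UMIs, against 72.8, 38.2 and 49.4 CPM.

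The other T-positive cells set that last contrast, since 2159 of 2751, 913 of 1489 and 2282 of 3649 of them had a UMI of Mesp1, a gene that the rule bars from members. Against the 431, 514 and 1262 other T-positive cells without Mesp1 and Sox17 the log2 ratio of Fn1 was 0.01, -0.19 and -0.21, so the lower Fn1 was not seen there. The log2 ratio of Snai1 was -0.74, -1.46 and -1.16 against them, in place of -3.45, -2.86 and -2.49. Against the cells without Mesp1 the log2 ratio of Krt8 was 1.45, 1.89 and 2.96, that of Krt18 0.96, 1.12 and 2.10, and that of Nog 4.09, 4.81 and 5.31. The Foxa2-positive neighbours shared the keratins. Krt8 was at 458, 923 and 665 CPM in members, against 318, 918 and 485 CPM in them, and Krt18 at 343, 677 and 441 CPM, against 264, 901 and 544 CPM. Of the adhesion and epithelium list 0, 1 and 0 genes were at least 2-fold higher in members than in the Foxa2-positive cells, and 1, 2 and 2 were lower. Over all genes compared with those cells 3.32%, 9.1% and 7.35% were higher in members and 1.43%, 10.4% and 4.05% lower. Some of the Foxa2-positive cells held much RNA of visceral endoderm genes. Per cell, its upper quartile was 22529 CPM at E7.25 and its 90th percentile 17122 CPM in E7.5 posterior. The part of such cells in the keratin and adhesion values was not tested.

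Among the genes lowest in members, Lefty2, a NODAL antagonist of mesoderm, had 9, 1 and 8 UMIs, or 3.53, 1.75 and 4.41 CPM, against 231, 108 and 131 CPM in the other T-positive cells. Most of this contrast lay in the Mesp1-positive cells, as the log2 ratio was -6.04 at E7.0 against all other T-positive cells and -0.54 against those without Mesp1 and Sox17. Phlda2, an imprinted gene, was at 27.4, 40.3 and 65.0 CPM in members, against 456, 854 and 939 CPM. Its log2 ratio was -4.06, -4.40 and -3.85 against all other T-positive cells and -2.07, -3.14 and -2.44 against those without Mesp1. Fgf3, a growth factor of the streak, had 3, 2 and 7 UMIs in members, against 101, 102 and 48.6 CPM in the other cells.

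Ccnd2, a D cyclin, was at 16.9, 24.6 and 35.8 CPM in members, against 112, 196 and 167 CPM, and kept log2 ratios of -1.69, -2.75 and -2.09 against the cells without Mesp1. Gja1, the gap junction protein connexin 43, had log2 ratios of -1.81, -1.63 and -1.54, and of -1.68, -1.46 and -1.45 against the cells without Mesp1. Msx1, a target of BMP signalling, had -1.74, -2.09 and -1.68, and -1.39, -1.61 and -1.52. Phlda2, Fgf3, Ccnd2, Gja1 and Msx1 were thus at least 2-fold lower by either comparison in all 3 libraries.

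Of the signals of the midline, the hedgehog pathway was sparse. Of its 17 genes Shh is in the rule, and of the rest 3 were compared in each library. Ptch1, receptor and target of the pathway, was at 36.8, 102 and 71.1 CPM in members, against 28, 40.3 and 31.9 CPM in the other T-positive cells, with log2 ratios of 0.40 (0.08 to 0.70), 1.34 (0.92 to 1.73) and 1.16 (0.88 to 1.42). Gas1, a co-receptor, was at 14.9, 28.1 and 38.6 CPM in members, against 104, 71.2 and 81.1 CPM. Smo, the signal transducer, was at 75.6, 93 and 82.6 CPM, against 61.4, 72.2 and 67.8 CPM. Gli1, the usual readout of the pathway, had 4, 3 and 6 UMIs over all members, too few to compare.

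Of 16 genes of left-right patterning 9, 6 and 8 were above the level in the other T-positive cells. Over all genes with a UMI it was 40.7%, 39.6% and 40.5%, so the count at E7.25 was near that share. The list summed to 432, 482 and 486 CPM in members, against 728, 336 and 363 CPM. Nodal, the left-side signal, had 13, 18 and 43 UMIs in 10, 14 and 33 members, or 5.09, 31.6 and 23.7 CPM, against 4.84, 3.89 and 3.32 CPM in the other T-positive cells. Its level in members at E7.0 was thus that of the other cells within counting error (log2 ratio 0.07, -0.86 to 0.88). Dand5, the NODAL antagonist of the node's right side, was at 4.70, 21.1 and 16.5 CPM in members, against 2.51, 2.90 and 4.99 CPM. Pkd1l1, a channel protein of the flow-sensing cilia, was at 10.2, 22.8 and 15.4 CPM, against 0.81, 0.62 and 0.44 CPM. Cfc1, a NODAL co-receptor, was at 49.8, 59.6 and 54.5 CPM, against 17.1, 28 and 12.8 CPM. Gdf1, the usual partner of NODAL, was listed with 0 UMIs in members and in the other T-positive cells of all 3 libraries.

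The list of 12 BMP ligands and response genes held genes on both sides. Bmp2 was at 42.3, 38.6 and 30.3 CPM in members, against 10.2, 13.5 and 5.89 CPM in the other T-positive cells, and Bmp7 at 50.9, 77.2 and 58.4 CPM, against 18.9, 21.3 and 15.2 CPM. Id1, a direct target of BMP signalling, was at 33.7, 49.1 and 50.7 CPM in members, against 109, 102 and 136 CPM. Both ligands were thus at least 2-fold higher and Id1 at least 2-fold lower in members of every library. Bmp4, another ligand, was at 5.49, 10.5 and 5.51 CPM in members, against 8.25, 52.7 and 14.4 CPM, and was at least 2-fold lower at E7.25. Against the cells without Mesp1 and Sox17 the log2 ratio of Id1 was -1.41, -0.70 and -1.26, which is less than 2-fold at E7.25. Against the Foxa2-positive cells Bmp7 stayed within 2-fold in every library, and Bmp2 was at least 2-fold higher in E7.5 posterior alone. Over the whole list 2 genes were higher than in the other T-positive cells in each library, and 2, 3 and 2 were lower. By level 5, 3 and 3 of the 12 were above them, beside 40.7%, 39.6% and 40.5% of all genes with a UMI.

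Of the WNT list of 17 genes 7 were compared in each library. Lgr5, a receptor of R-spondins, was at 58.0, 35.1 and 29.2 CPM in members, against 7.0, 5.24 and 3.10 CPM in the other T-positive cells. Sp5, a direct WNT target, was at 255, 181 and 296 CPM, against 198, 86.8 and 124 CPM. Lef1, a nuclear partner of beta-catenin, was at 24.3, 38.6 and 55.1 CPM, against 117, 118 and 130 CPM. The secreted WNT antagonist Frzb was at 16.1, 14.0 and 29.7 CPM in members, against 68.2, 65.1 and 70.7 CPM. The list therefore had members on both sides, with median log2 ratios of -0.69, 0.06 and -0.62, of which the first 2 changed sign between processing alternatives.

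Markers of several other cell types were below the level in the other T-positive cells. All 14 visceral endoderm genes were lower in members by level in every library, with a sum of 440, 759 and 236 CPM in members, against 1125, 2051 and 629 CPM. Per cell the median of this list was 112, 204 and 0 CPM in members, against 117, 227 and 68.9 CPM. The median cell thus differed little at E7.0 and E7.25. At E7.25 the 90th percentile was 760 CPM in members, against 1269 CPM in the other cells. The 12 genes of nascent and paraxial mesoderm outside the rule summed to 33.3, 54.4 and 126 CPM in members, against 385, 273 and 391 CPM, and 3, 5 and 1 of them had 0 UMIs in members. Cardiac genes summed to 34.1, 36.8 and 25.3 CPM in members, against 168, 190 and 114 CPM. Blood and endothelium genes summed to 30.2, 26.3 and 41.9 CPM, against 85.3, 147 and 59.6 CPM. Each of these sums leans on a reference that is mostly Mesp1-positive. Epiblast and ectoderm genes lay near the other cells, with 1757, 1244 and 1223 CPM in members, against 1802, 1269 and 1433 CPM. Of these, Fgf5, a growth factor of the epiblast, was at 175, 135 and 113 CPM in members, against 63.1, 19.1 and 17 CPM. Of 9 neural floor plate and neural plate genes 3, 6 and 2 were above the level in the other cells. Over all genes with a UMI it was 40.7%, 39.6% and 40.5%.

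Definitive endoderm arises beside the node and shares Foxa2 with it. Of its 12 markers, with Sox17 barred by the rule, 5 were compared in each library and 4, 3 and 4 were at least 2-fold higher in members. Besides Foxa2 these were Trh, Cldn6 and Hhex at E7.0, Cer1 and Krt19 at E7.25, and Cer1, Krt19 and Cldn6 in E7.5 posterior. Of the list 5 genes reached the minimum of 30 CPM in members of each library, and 3, 2 and 2 in the other cells. The counts thus lean on the minimum. By level 9, 6 and 9 of 11 were above the other T-positive cells, beside 40.7%, 39.6% and 40.5% of all genes with a UMI. The median member held 515, 621 and 618 CPM of the list. In the Foxa2-positive cells, which Foxa2 itself chose, it was 535, 762 and 513 CPM. Cer1, a secreted antagonist of NODAL, BMP and WNT of the anterior endoderm, was at 59.2, 71.9 and 94.2 CPM in members, against 31.9, 21.1 and 15.7 CPM in the other T-positive cells. Endoderm cells with no captured Sox17 UMI can meet the rule, and their part in these values was not tested.

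A few members of E7.5 posterior carried both Shh and Cer1. The 25 members with a UMI of Shh held 430 CPM of Cer1 (344 to 531), against 52.6 CPM (42.0 to 65.1) in the 197 without. Cer1 had a UMI in 56.0% of the Shh-positive members and in 14.2% of the Shh-negative ones. Krt18 was at 1195 CPM in Shh-positive members, against 348 CPM, and Foxj1 at 315 CPM, against 398 CPM. Noto was at 95 and 99 CPM in the Shh-positive and Shh-negative members. By the rule a Shh-positive member needs fewer of the other markers than a Shh-negative one. The levels of Foxj1 and Noto in this split thus depend on the rule and are no result. In the other libraries Cer1 had the same order, from only 10 and 6 Shh-positive members. At E7.0 Cer1 was at 204 CPM (132 to 301) with Shh, against 51.9 CPM (43.2 to 61.8) without. At E7.25 it was at 129 CPM (55.5 to 253), against 65.0 CPM (44.7 to 91.2). Krt18 was at 1150 against 302 CPM at E7.0 and at 788 against 663 CPM at E7.25.

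Members with Noto were set against members without it, in numbers of 104 and 102 at E7.0, 27 and 53 at E7.25 and 111 and 111 in E7.5 posterior. By the rule a member without Noto has at least 2 of the other 5 markers and a member with Noto at least 1. Nog was at 45.7, 101 and 133 CPM in members with Noto, against 14.8, 69.0 and 52.8 CPM in those without. T was at 584, 1500 and 1257 CPM with Noto, against 309, 953 and 1006 CPM without. Foxj1 was at 383, 571 and 498 CPM with Noto, against 220, 312 and 285 CPM without. At E7.0 Gsc was lower with Noto, at 44.1 CPM, than without, at 97.4 CPM.

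Replication genes were slightly lower in members. Of 33 S phase genes 30 were compared, 0 were at least 2-fold higher and 2, 3 and 4 lower, and the median log2 ratio was -0.41, -0.49 and -0.55. By level 29, 30 and 31 of the 33 were below the other T-positive cells. Above them were 4, 3 and 2, beside 40.7%, 39.6% and 40.5% of all genes with a UMI. Ccne2, a cyclin of S phase entry, was lower at least 2-fold in all 3 libraries, at 14.1, 15.8 and 14.3 CPM in members, against 36.7, 34.6 and 32.9 CPM. The log2 ratio of Ccne2 was -1.09, -1.36 and -1.05 against the cells without Mesp1 and Sox17. Thinned to 5000 UMIs per cell, the median member had 17, 17 and 16 UMIs of the S phase list, against 23, 25 and 25 in the other cells.

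Division genes differed less on average but spread more. Of 45 genes of G2 and M phase 40 were compared and 0 were called in either direction, with medians of -0.02, -0.19 and -0.21, and the E7.0 median lay on both sides of 0 between processing alternatives. Thinned to 5000 UMIs, the median member had 39.5, 37.5 and 35 UMIs of this list, against 41, 37 and 40 in the other T-positive cells. The lowest 10% of members lay at or below 22, 12 and 11 UMIs, against 29, 26 and 27 in the other cells. The upper quartile was 54.75, 52.75 and 54 UMIs in members, against 49, 46 and 49. Between the 10th percentile and the upper quartile the members thus spread wider than the other T-positive cells. The highest cell had 91, 84 and 87 UMIs of the list in members, against 89, 88 and 92 in the other cells.

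The G2 and M list was at 8588, 8985, 9323 and 9560 CPM with 2, 3, 4 and 5 markers at E7.0. It was at 8447, 7588, 6594 and 7993 CPM at E7.25 and at 8107, 7947, 8225 and 6546 CPM in E7.5 posterior, so the libraries had no common order. Top2a, a topoisomerase of dividing cells, was at 398, 404, 389 and 420 CPM in these cells at E7.0 and at 457, 389, 394 and 262 CPM in E7.5 posterior. Of 14 cell cycle inhibitors and D cyclins 6, 6 and 7 were compared, and in each library 2 were at least 2-fold higher in members and 2 lower. Cdkn1b, the inhibitor p27, was at 42.7, 70.2 and 40.8 CPM in members, against 20.9, 17.3 and 17.4 CPM in the other T-positive cells, and Btg1, an antiproliferative gene, at 69.4, 118 and 139 CPM, against 24.6, 33.0 and 43.1 CPM. Ccnd1, a D cyclin, was at 67.8, 66.7 and 72.2 CPM, against 181, 151 and 160 CPM.

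**Figure D4:**
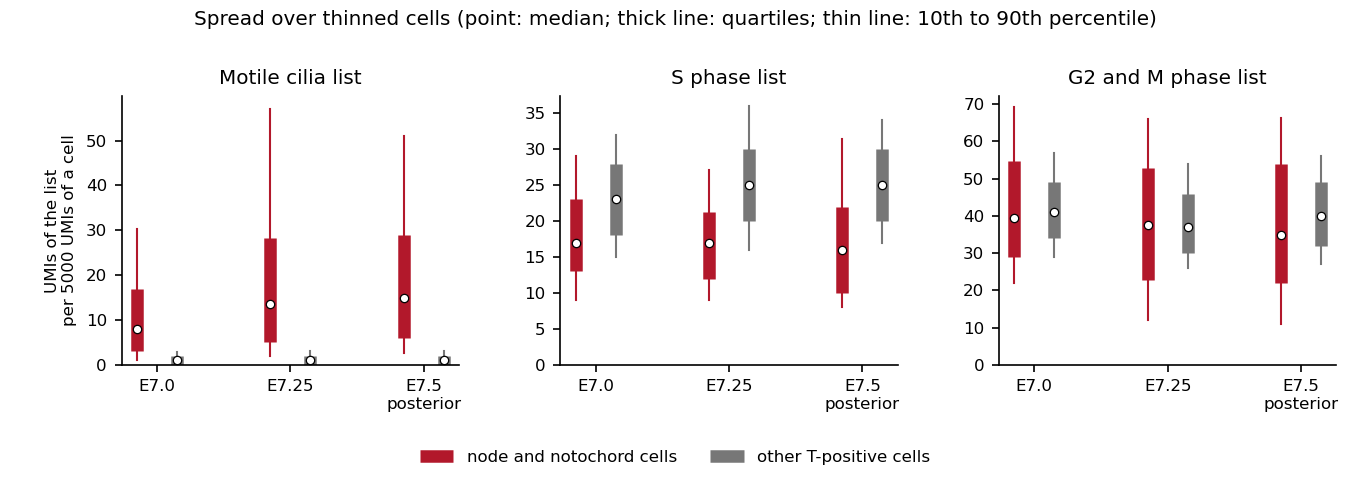
UMIs per cell, after thinning every cell to 5000 UMIs, of the motile cilia, S phase and G2 and M phase lists (y axes), for members (red) and the other T-positive cells (grey) of each library. The middle mark is the median, the thick bar the quartiles and the thin line the 10th to the 90th percentile. The cilia medians are 8, 13.5 and 15 UMIs in members and 1 in the other cells.

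Between libraries the members' comparisons share libraries in pairs, so E7.25 counts in 2 of them. For E7.25 over E7.0, 309 of 4522 compared genes were at least 2-fold higher (6.83%) and 151 lower (3.34%). For E7.5 posterior over E7.25 it was 108 of 4549 (2.37%) and 149 (3.28%), and for E7.5 posterior over E7.0 135 of 4303 (3.14%) and 47 (1.09%). The split between higher and lower depended on the scaling, since the median log2 ratio over all genes was -0.14, 0.06 and -0.12 with TMM and 0.11, -0.09 and -0.01 without it. With TMM the counts were 165 higher and 290 lower, 164 and 89, and 107 and 65. The share of higher genes among the called ones was then 36.3%, 64.8% and 62.2%, in place of 67.2%, 42.0% and 74.2%. Only genes well past this shift are named below.

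The motile cilia genes were lowest at E7.0. Of the 47 genes outside the rule, 44 had a higher level at E7.25 than at E7.0, beside 54.8% of all genes with a UMI. Between E7.5 posterior and E7.0 it was 46 of 47, beside 56.9% of all genes. Between E7.5 posterior and E7.25 it was 24 of 47, beside 48.8% of all genes. The same was seen per cell at equal depth, where the median member had 8 UMIs of the list at E7.0, 13.5 at E7.25 and 15 in E7.5 posterior, against 1 in the other T-positive cells of each library. The spread among members was wide, from 1 UMI at the 10th percentile to 30.3 at the 90th at E7.0.

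Among the genes ranked lowest for E7.25 over E7.0 were Gsc, Fgf8, Tdgf1 and Cyp26a1. T and Chrd were not lower at E7.25, but the rule used both, so their levels are no result. Of the 20 genes of the node and notochord list outside the rule, 10 had a higher level at E7.25 than at E7.0. That was near the share of 54.8% over all genes with a UMI. Eomes, Gsc, Zic2 and Fgf8 were at least 2-fold lower, and Slit2, Bicc1, Nog, Krt19, Sox9 and Krt8 at least 2-fold higher. Over all compared genes 3.34% were lower and 6.83% higher. Gsc had 2 UMIs in members at E7.25 against 181 at E7.0, a log2 ratio of -4.34 (-7.39 to -2.46), and in the other T-positive cells it was -3.15. Fgf8 was at 14.0 CPM at E7.25 against 79.2 CPM at E7.0, and at 58.4 CPM in E7.5 posterior. Tdgf1, the NODAL co-receptor Cripto of epiblast and streak, was at 52.6 CPM at E7.25 against 230 CPM at E7.0, with a log2 ratio of -2.13 in members and -2.11 in the other cells. Cyp26a1, an enzyme that degrades retinoic acid, was at 22.8 CPM at E7.25 against 123 CPM at E7.0. Gsc, Fgf8, Tdgf1 and Cyp26a1 were lower at E7.25 in the other T-positive cells too, with log2 ratios between -3.15 and -1.98. No difference between members and other cells was tested.

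Genes higher in the later members included Bicc1, at 174 CPM at E7.25 against 26.7 CPM at E7.0, with a log2 ratio of 2.70 (2.24 to 3.17) in members and 0.74 in the other T-positive cells. Gal, a neuropeptide gene, was at 146 CPM at E7.25 and 196 CPM in E7.5 posterior, against 11.8 CPM at E7.0. Zmynd10, which assembles axonemal dyneins, was at 107 CPM at E7.25 against 27.4 CPM at E7.0. Jun, an early response gene, was at 298 CPM at E7.25 against 41.5 CPM at E7.0, and Fosb, another, at 52.6 against 3.92 CPM, with 3.62 on the log2 scale in the other cells beside 3.75 in members. Such genes are known to respond to cell dissociation, and their level was higher at E7.25 in the other T-positive cells too. The part of dissociation was not tested.

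Of 10 caudal epiblast genes 8 had a higher level in members of E7.5 posterior than at E7.0, beside 56.9% of all genes. They summed to 559 CPM in E7.5 posterior and 153 CPM at E7.0. Cdx2, a caudal homeobox factor, was at 90.3 CPM in members of E7.5 posterior against 4.31 CPM at E7.0, with a log2 ratio of 4.39 (3.51 to 5.42) in members and 2.84 in the other T-positive cells. Hoxb1 had 130 UMIs in members of E7.5 posterior against 1 UMI at E7.0, a log2 ratio of 7.51 (5.01 to 12.83). It was found in 1, 11 and 42 members of the 3 libraries, or 0.485%, 13.8% and 18.9%, against 15.7%, 36.7% and 53.1% of the other T-positive cells. Thinned to 5000 UMIs, the shares at E7.25 and E7.5 posterior were 11.7% and 13.8% of members, against 24.2% and 39.5%. By level the difference in E7.5 posterior was within 2-fold, at 71.6 CPM in members, against 132 CPM in the other cells. Meis2, a HOX cofactor, was at 66.7 CPM in E7.5 posterior against 6.66 CPM at E7.0, and Sox9 at 52.3 against 9.01 CPM, with 0.77 on the log2 scale in the other cells beside 2.54 in members. The E7.5 library holds the posterior region alone, so posterior genes and stage cannot be told apart.

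Other genes moved with the library as a whole. Defa30, a defensin gene, was at 98.6 CPM in members of E7.5 posterior against 7.02 CPM at E7.25, with log2 ratios of 3.81 in members and 3.62 in the other T-positive cells. Ttr was at 18.2 CPM in E7.5 posterior against 123 CPM at E7.25, with -2.76 in members and -2.28 in the other cells. Spink1, a gene of visceral endoderm, was at 47.4 CPM against 223 CPM, but its direction turned to a log2 ratio of 0.31 among members with at least 3 markers. Replication-dependent histone genes filled most of the places among the genes lower in E7.5 posterior than at E7.0, and Hist1h2ap, whose copies are near-identical, was at 140 CPM in members of E7.5 posterior against 616 CPM at E7.0.

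**Figure D5:**
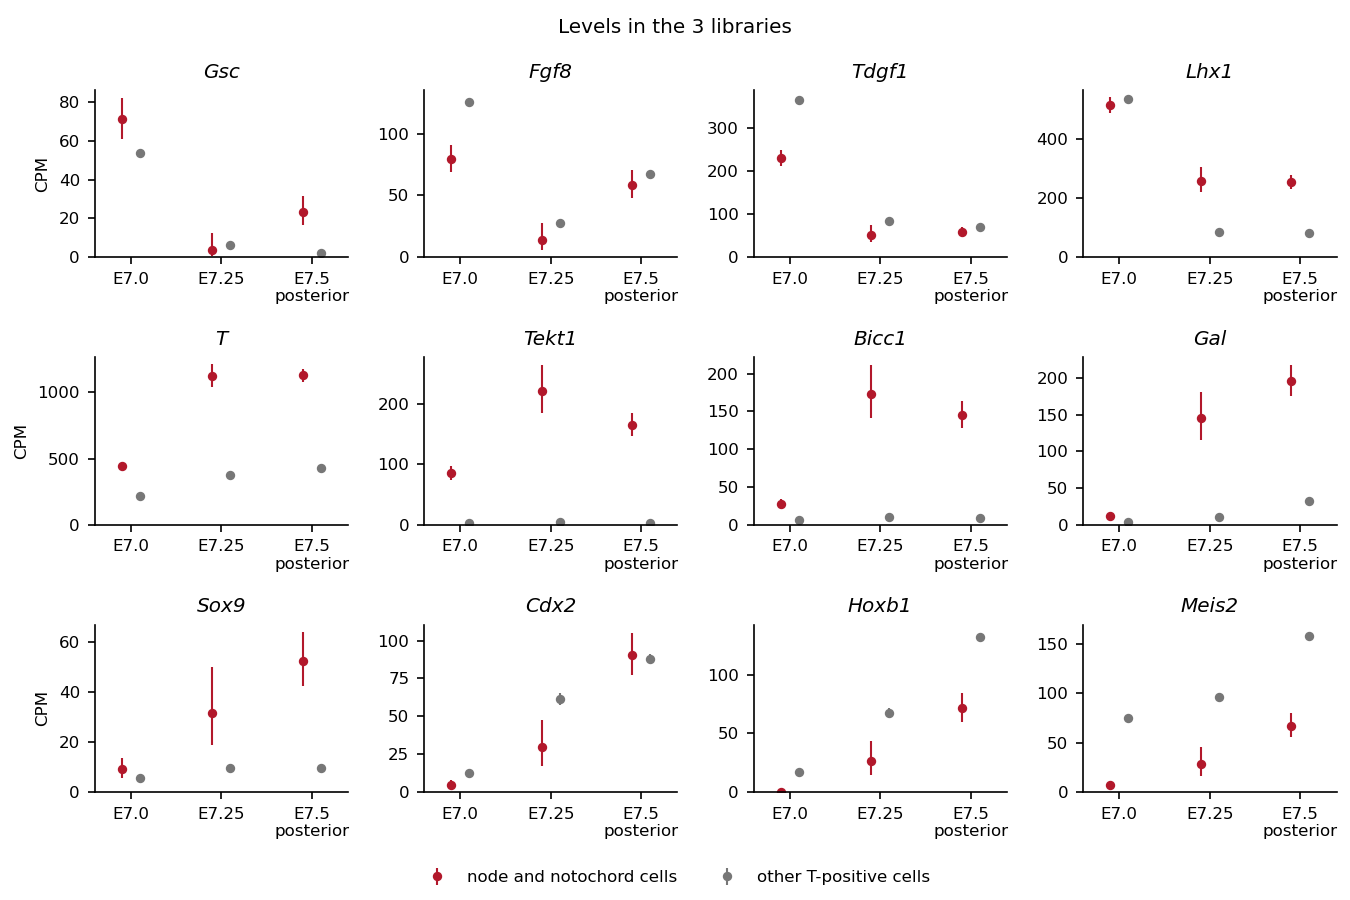
Level in CPM (y axes) of 12 genes in the 3 libraries (x axes), in members (red, left of each pair) and the other T-positive cells (grey). Whiskers are 95% Poisson intervals for counting error. Bicc1 is at 26.7, 174 and 145 CPM in members and at 9.56 CPM or less in the other cells, and Gsc is highest at E7.0 in both.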

How the data were processed

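RNA of single cells was measured in 3 libraries, 1 per group. The deposited values are unscaled UMI counts for 32285 genes, made with Cell Ranger 6.0.1 per the file headers. Genome build and annotation: not given in the sources used here.

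Cells were kept at 1000 or more genes and at most 10% mt- UMIs, which left 7941 of 10232, 5194 of 6173 and 8438 of 11468 barcodes. UMIs were summed over the cells of a group and divided by their total (CPM). Log2 ratios of CPM have conditional binomial intervals, sums Poisson and shares Clopper-Pearson intervals at 95%, and all cover counting error only. A gene was compared at 30 CPM in 1 of the 2 sums and called at 2-fold. A side with 3 UMIs or fewer was set to 3 UMIs for a call. No test was run, because each group has 1 library and the members were chosen on measured values.

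The members and the gene lists were chosen with earlier results of these data known. Named genes are those of the rule, list genes at 30 CPM or more in members of any library, the 20 highest and 12 lowest genes by the ratio nearest 0 over the libraries, and the 8 highest and 8 lowest genes at 50 CPM or more in each comparison of libraries. Of these the text names part. Mitochondrial, ribosomal protein, predicted and sex-linked genes were left out of the ranks.

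Doublets were marked by a score after Scrublet, with 2 simulated doublets per cell, 30 components and an expected rate of 0.05, and were removed only as an alternative. In E7.5 posterior the automatic limit marked 5 cells, so the highest 570 scores were marked. Cells were thinned to 5000 UMIs with fixed seeds, leaving out shallower cells (8, 20 and 55 members). Alternatives were other cell filters, other thresholds of the rule, TMM scaling, other minima, means over cells, thinning before the rule, and other T-positive cells without Sox17 and Mesp1 as the reference. The ratios and thinning were tested on simulated data. Tools were Python 3.11.15, numpy 2.4.6, scipy 1.17.1, pandas 2.3.3, scikit-learn 1.9.0 and matplotlib 3.10.9.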

Additional observations from a re-analysis of the deposited data

Results flagged for a closer look

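Among the 3030 barcodes of E7.5 posterior that failed the limits on detected genes or mitochondrial UMIs, 6 met the gene rule of the members. At E7.0 it was 3 of 2291 such barcodes and at E7.25 1 of 979. They were set apart because they carry the members' signal in data that no comparison used. They are not among the 508 members.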

How the results depend on the processing

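Across the alternatives, the 32 named genes kept their sign against the other T-positive cells in all 3 libraries, and 26, 31 and 30 stayed past 2-fold. Between libraries 16 of 16, 15 of 16 and 16 of 16 kept it for E7.25 over E7.0, E7.5 posterior over E7.25 and E7.5 posterior over E7.0. The exception was Spink1, with a log2 ratio of -2.23, which was 0.31 with 3 markers required. The motile cilia median stayed within 4.20 to 4.67, 5.43 to 5.94 and 4.99 to 5.91. The cause of the changes below was not tested, other than the minima, which by construction admit more genes, and with no minimum let 3 UMIs stand for a higher CPM in the smaller sum.

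The share of T-positive cells that were members was 4.63%, 3.51% and 4.44% with 3 markers required, 9.34%, 7.57% and 7.60% with 2 UMIs of T, and 9.91%, 6.37% and 7.62% without the limit on Sox17 and Mesp1. In E7.5 posterior it was 4.28% at 2000 genes and 4.69% with thinned cells.

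Against the other T-positive cells, genes higher and lower were 485 and 186 at E7.0, 1102 and 569 at E7.25 and 761 and 299 in E7.5 posterior at 10 CPM, and 4778 and 554, 5747 and 569, and 5516 and 603 with no minimum. With means over cells 116, 350 and 208 genes were lower. Thinned, it was 349 higher and 237 lower at E7.0, 503 lower at E7.25 and 266 lower in E7.5 posterior. With 3 markers required it was 121 lower at E7.0, 642 higher and 393 lower at E7.25 and 197 lower in E7.5 posterior. Without predicted doublets 236 genes were lower in E7.5 posterior.

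For E7.25 over E7.0, genes higher and lower in members were 165 and 290 with TMM, 1021 and 345 at 10 CPM, 2799 and 345 with no minimum, 517 and 310 thinned, and 470 and 227 with 3 markers. For E7.5 posterior over E7.25 they were 164 and 89 with TMM, 355 and 582 at 10 CPM, 355 and 1745 with no minimum, 268 and 346 thinned, and 249 lower with 3 markers. For E7.5 posterior over E7.0 they were 433 and 138 at 10 CPM, 1240 and 364 with no minimum, 215 and 74 without predicted doublets, and 207 and 99 thinned. Over all alternatives of shares, counts, lists and named genes, 1633 of 1875 values stayed within set limits. The limit was the main interval for a share or gene, a fixed fold for a count and a fixed log2 shift for a list median. Beyond them moved 48 list medians and 131 named gene ratios, of which the text gives part. No paired analysis was possible because each group has 1 library. Depth limits genes under about 30 CPM in members, and most of all at E7.25.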

Other observations

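Cells with the node markers but without a captured T UMI lay outside the rule. Cells with 0 UMIs of T, at least 2 of the 6 markers and 0 UMIs of Sox17 and Mesp1 numbered 70 at E7.0, 5 at E7.25 and 25 in E7.5 posterior, and 26, 2 and 7 of them had 3 markers or more. Their motile cilia list, without the genes of the rule, was at 944, 1004 and 1306 CPM, near the level of members with 2 markers at E7.0 and E7.5 posterior. Foxa2 was at 118, 35.2 and 66.0 CPM in them.

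T-positive cells with at least 2 markers that the rule turned away for a UMI of Sox17 or Mesp1 numbered 87, 20 and 73. Of these, 67, 14 and 59 failed on Mesp1 alone and 11, 1 and 11 on Sox17 alone. Their median depth was 19325, 16481 and 11141 UMIs, against 9998, 6004 and 6832 UMIs in the members. Their motile cilia list was at 818, 736 and 2114 CPM, which lies below the members' 2019, 4003 and 4041 CPM.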
